A study of Mus musculus with 3 samples.

Results

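The genes described here build and remodel the extracellular matrix: the collagens, the laminins, the hyaluronan link proteins and 29 further proteoglycans, glycoproteins, synthases, proteases and protease inhibitors. Members were chosen by symbol, and 88 of the 39377 rows of the table met the rule, among them 44 collagen and 11 laminin genes. The tissue was whole hippocampus with all its cell types, from C57BL/6 mice of wild-type genotype on postnatal day 14, and total RNA was sequenced. The 3 libraries form 1 group with no treatment or mutant beside it, so every comparison is between genes inside the same libraries. The labels do not say if each library is a different animal. The p-values therefore rest on variation among 3 samples that may be technical alone.

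The matrix of the brain is rich in hyaluronan and poor in fibrillar collagen. The lecticans aggrecan, brevican, neurocan and versican are chondroitin sulfate proteoglycans that bind hyaluronan, link proteins fasten that bond, and tenascin-R ties lecticans together. Around parvalbumin interneurons and some other neurons this material condenses during postnatal life into perineuronal nets, lattices on the cell body and proximal dendrites. Collagens I and III and the small proteoglycans decorin and lumican belong to a different matrix, made largely by fibroblasts of the meninges and of large vessels. Basement membranes of collagen IV, laminin, nidogen and heparan sulfate proteoglycans surround the brain's vessels and lie under its surface.

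Levels are the FPKM values that the authors deposited, which scale fragments by transcript length in kilobases and by each 1000000 fragments mapped, so genes are compared per length. Steps between low FPKM values gave an estimated 3700000, 4160000 and 5960000 fragments in libraries 1, 2 and 3, and 3 fragments in a transcript of 2 kb were worth 0.466, 0.410 and 0.289 FPKM. These floors cover counting error only. Of the 88 members, 56 had a mean of at least 1 FPKM and were tested, 7 were listed at 0 in at least 1 library and 0 were listed at 0 in all. The summed FPKM of 5 neuron markers lay between 1423 and 1558 in the 3 libraries. In bulk tissue, fewer cells of a type and less RNA per cell cannot be told apart.

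Each lectican gene lies beside a link protein gene, with 0 coding genes between them in the RefSeq annotation of GRCm38.p6. Brevican (Bcan, chr3:87987531-88002175) and Hapln2 (chr3:88020558-88027511) are 18.4 kb apart. Neurocan (Ncan, chr8:70093085-70120863) lies 2222 bases from Hapln4 (chr8:70083529-70090862). Versican (Vcan, chr13:89655309-89743027) is separated from Hapln1 (chr13:89540529-89611832) by 43.5 kb. Aggrecan (Acan, chr7:79053226-79115099) and Hapln3 (chr7:79117027-79133173) are 1927 bases apart.

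The promoters of the 4 lecticans and of Hapln1 are printed because these genes, alike in function, ranged in mean level from 101 FPKM for Bcan to 0.743 FPKM for Acan. Each window holds 300 bases around a RefSeq start site of the gene, 5′ to 3′ on the gene's own strand, on GRCm38.p6. Capitals mark the TATA element TATAAA, the box CCAAT and the GC box GGGCGG, read on either strand, and matches may overlap.
Bcan, chr3:88000307-88000606, minus strand: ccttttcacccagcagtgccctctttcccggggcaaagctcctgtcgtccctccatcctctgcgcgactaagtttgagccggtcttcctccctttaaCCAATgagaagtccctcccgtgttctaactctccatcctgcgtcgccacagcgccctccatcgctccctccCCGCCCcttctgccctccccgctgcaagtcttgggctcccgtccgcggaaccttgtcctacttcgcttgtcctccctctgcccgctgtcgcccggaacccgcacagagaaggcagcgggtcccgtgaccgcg
Ncan, chr8:70120795-70121094, minus strand: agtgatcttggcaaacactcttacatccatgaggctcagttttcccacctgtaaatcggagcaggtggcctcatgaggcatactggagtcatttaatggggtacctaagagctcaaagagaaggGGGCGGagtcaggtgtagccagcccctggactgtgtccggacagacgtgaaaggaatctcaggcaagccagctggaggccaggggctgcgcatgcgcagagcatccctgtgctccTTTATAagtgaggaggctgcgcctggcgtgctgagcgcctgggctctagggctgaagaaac
Vcan, chr13:89742463-89742762, minus strand: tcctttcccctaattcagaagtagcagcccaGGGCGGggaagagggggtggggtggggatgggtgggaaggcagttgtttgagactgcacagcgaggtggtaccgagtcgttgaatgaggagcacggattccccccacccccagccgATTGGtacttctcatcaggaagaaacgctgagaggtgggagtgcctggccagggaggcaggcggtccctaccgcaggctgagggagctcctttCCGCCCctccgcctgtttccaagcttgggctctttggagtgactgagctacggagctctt
Acan, chr7:79052976-79053275, plus strand: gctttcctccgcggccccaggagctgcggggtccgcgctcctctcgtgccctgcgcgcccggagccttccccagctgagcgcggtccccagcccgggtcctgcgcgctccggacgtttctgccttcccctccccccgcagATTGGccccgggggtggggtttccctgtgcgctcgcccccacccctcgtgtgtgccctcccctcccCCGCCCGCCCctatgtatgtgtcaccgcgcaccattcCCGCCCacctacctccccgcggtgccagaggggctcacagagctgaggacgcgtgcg
Hapln1, chr13:89540386-89540685, plus strand: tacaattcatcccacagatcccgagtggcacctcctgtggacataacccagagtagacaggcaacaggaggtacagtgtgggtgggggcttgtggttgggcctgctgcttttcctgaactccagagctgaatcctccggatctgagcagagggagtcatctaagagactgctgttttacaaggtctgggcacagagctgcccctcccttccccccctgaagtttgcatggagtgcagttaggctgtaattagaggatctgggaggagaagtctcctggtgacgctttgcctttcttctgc
The Ncan window held 1 TATAAA, the Acan window 3 GGGCGG, and the Hapln1 window 0 of the 3 motifs. CpG dinucleotides numbered 24 in the Bcan window, 9 in Ncan, 12 in Vcan, 31 in Acan and 3 in Hapln1. Promoter windows were matched for 61 of the 88 members. TATAAA was in 9 of these 61 (14.8%) and in 13.6% of all 32544 windows. CCAAT was in 23 (37.7%) against 37.4% of all, and GGGCGG in 39 (63.9%) against 35.9%. The median window held 11 CpG and 60% GC among the members, against 7 CpG and 53% GC over all windows. A match is only a run of letters, and a relation between window content and level was not tested.

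Brevican and neurocan supplied nearly all lectican transcripts of the hippocampus, and aggrecan, the lectican used to mark perineuronal nets, lay under 1 FPKM in every library. Bcan, a proteoglycan made by astrocytes and oligodendrocyte precursors, was at 94.40, 94.17 and 115.52 FPKM in libraries 1, 2 and 3. Ncan, a lectican abundant in the young brain, was at 78.48, 90.52 and 95.25 FPKM. Bcan was above Ncan in all 3 libraries, by 1.15 ± 0.0968-fold (SD, n = 3), although the ranges of the 2 genes over the libraries overlapped. Vcan, the lectican of loose and developing matrix, was at 3.05, 4.02 and 4.16 FPKM, so Bcan stood 27.4 ± 3.78-fold above it (SD, n = 3). Acan was at 0.90, 0.57 and 0.76 FPKM, which over its 7355-base transcript corresponds to about 24, 17 and 32 fragments. Acan held rank 13934 in the table, and Bcan exceeded it by 141 ± 31.7-fold, or by 59.0 ± 8.12-fold when 1 FPKM was added to both (SD, n = 3). Of the summed lectican FPKM, Bcan made up 52.2 ± 2.15%, Ncan 45.5 ± 2.05%, Vcan 1.93 ± 0.20% and Acan 0.387 ± 0.108% (SD, n = 3).

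Among the link proteins, Hapln1 dominated. Hapln1, the cartilage link protein that also stabilises perineuronal nets, was at 43.11, 68.11 and 64.19 FPKM, lowest in library 1. Hapln4, the brain link protein named Bral2, was at 7.21, 2.74 and 4.14 FPKM, highest in library 1. The ratio of Hapln1 to Hapln4 was therefore 5.98, 24.9 and 15.5, always above 1 but varying widely. Hapln3, a more widely expressed link protein, was at 1.30, 2.70 and 2.09 FPKM. Hapln2, the link protein of nodes of Ranvier on myelinated axons, was listed at 0 in libraries 1 and 2 and at 0.34 FPKM, about 3 fragments, in library 3. Hapln1 gave 88.9 ± 4.80% of the summed link protein FPKM (SD, n = 3).

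Within each neighbouring pair the levels differed, least for Acan and Hapln3. Bcan averaged 101 ± 12.3 FPKM beside Hapln2 at 0.113 ± 0.196, and Ncan averaged 88.1 ± 8.65 FPKM beside Hapln4 at 4.70 ± 2.29 (SD, n = 3). In the other two pairs the link protein was the higher: Hapln1 averaged 58.5 ± 13.4 FPKM beside Vcan at 3.74 ± 0.605, and Hapln3 2.03 ± 0.702 FPKM beside Acan at 0.743 ± 0.166 (SD, n = 3). In each of the 4 pairs the libraries of the 2 genes did not overlap. The order of Acan and Hapln3 rests on few fragments, about 24, 17 and 32 against 15, 35 and 39 in libraries 1, 2 and 3. In library 1 these 2 genes were at 0.90 and 1.30 FPKM. The plot of neighbouring pairs shows these 4 steps.

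**Figure D1:**
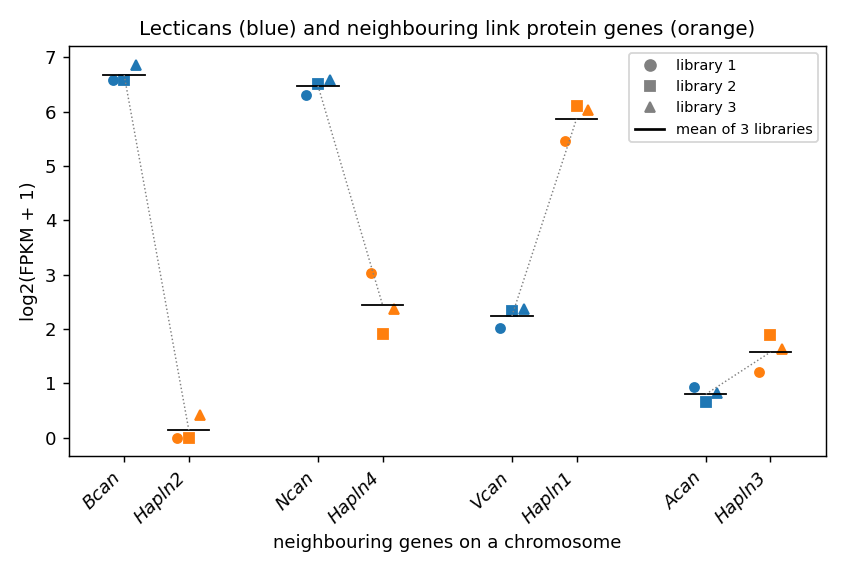
Levels of the 4 lectican genes (blue) and of the link protein gene next to each on its chromosome (orange). The vertical axis is log2(FPKM + 1), symbols are libraries 1, 2 and 3, short bars are means of the 3 libraries and dotted lines join neighbours. Bcan and Ncan stand far above Hapln2 and Hapln4, while Hapln1 and Hapln3 stand above Vcan and Acan.

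The remaining net components were at moderate or low levels. Tenascin-R (Tnr), the cross-linker of lecticans made by oligodendrocytes and some neurons, was at 12.84, 11.06 and 13.65 FPKM. Its relative tenascin-C (Tnc), typical of immature astrocytes and stem cell niches, was at 5.95, 4.54 and 6.15 FPKM. Tnr exceeded Tnc in every library, by 2.27 ± 0.146-fold (SD, n = 3). The hyaluronan synthases were low. Has3 was at 0.71, 1.22 and 1.01 FPKM, on about 15, 29 and 34 fragments, and Has2 at 0.27, 0.30 and 0.17 FPKM. Has1 was listed at 0 in library 1 and at 0.26 and 0.09 FPKM in libraries 2 and 3. Has2 rested on about 4, 5 and 4 fragments, so its level is known only roughly.

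The enzymes that build the chondroitin sulfate chains of lecticans were mostly near the median gene. Of 20 such enzymes outside the member list 17 were tested, 1 was higher than the median gene on the test described next, 3 were lower and 13 were not called, where 26.0% of all tested genes were higher and 22.3% lower. The higher enzyme was B3gat3, which completes the linker on which the chains grow, at 93.01, 99.70 and 103.55 FPKM. The lower enzymes were Chst7, a sulfotransferase, at 1.87 ± 0.144 FPKM, Chsy3, a chain polymerase, at 1.25 ± 0.194 FPKM, and Dse, an epimerase that turns chondroitin into dermatan sulfate, at 1.81 ± 0.451 FPKM (SD, n = 3). The sulfotransferase Chst13 was listed at 0 in every library. Of 5 genes of hyaluronan breakdown 3 were tested, and Cemip2 alone was called, lower, at 2.27 ± 0.071 FPKM (SD, n = 3).

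To set members against the rest of the transcriptome, log2(FPKM + 1) of each gene was compared with the median tested gene of the same library, which lay at 10.52, 10.33 and 10.17 FPKM. The test was limma's treat with a null that allows 1 log2 unit (2-fold) either way, with Benjamini-Hochberg adjustment over all 13337 genes with a mean of at least 1 FPKM and calls at an adjusted p under 0.05. On this test 6 of the 56 tested members were higher than the median gene, where 26.0% of all tested genes were, and 21 were lower, where 22.3% of all tested genes were. The other 29 were not called. The median member lay -1.10 log2 units from the median gene, while the median over all tested genes was -0.01. The 32 members under 1 FPKM entered neither count, so these counts describe the better expressed members only.

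The 6 higher members were Timp2, Bcan, Ncan, Hapln1, Dcn and Agrn. The log2 difference was 3.24 for Timp2 (SE 0.113, limma adjusted p = 4.07e-05), 3.17 for Bcan (SE 0.109, limma adjusted p = 3.92e-05) and 2.97 for Ncan (SE 0.104, limma adjusted p = 4.61e-05). These 3 genes and Hapln1 together held 48.8 ± 0.162% of the summed FPKM of all 88 members, which was 728 ± 32.2 (SD, n = 3). Hapln1 followed at 2.36 (SE 0.160, limma adjusted p = 0.000766), Dcn at 1.91 (SE 0.121, limma adjusted p = 0.00121) and Agrn at 1.61 (SE 0.111, limma adjusted p = 0.00403). Each of the 6 was higher than the median gene in 3 of 3 libraries. With only genes of at least 5 FPKM tested, the median gene itself is higher, and Dcn at 1.12 (limma adjusted p = 0.375) and Agrn at 0.82 (limma adjusted p = 1) were no longer called. Without a filter the median gene is lower, and 13 of the 21 lower members were no longer called. Tnr, at 0.25 log2 units above the median gene, and Hapln4 and Vcan, at -1.07 and -1.27, were not called. Timp4 lay 1.32 log2 units above the median gene but missed the threshold (limma adjusted p = 0.0848), and it was called without library 1, where it was lowest (adjusted p = 0.0143).

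Perineuronal net genes were then compared with meningeal genes. The first list held Acan, Bcan, Ncan, Vcan, Tnr, Hapln1, Hapln4, Has2 and Has3, and the second Col1a1, Col1a2, Col3a1, Col5a1, Col5a2, Col6a1, Col6a2, Col6a3, Col12a1, Dcn, Lum and Bgn. Of the 9 net genes 6 were tested and 3 were higher than the median gene, Bcan, Ncan and Hapln1, with 0 lower by limma (1, Vcan, at an unadjusted p under 0.05). Of the 12 meningeal genes 9 were tested, 1 was higher, Dcn, and 4 were lower, Lum, Col6a1, Col6a2 and Col12a1, calls that were all lost without a filter. Over all tested genes 26.0% were higher and 22.3% lower. The median log2 difference of the tested members was 1.31 for the net list and -1.01 for the meningeal list, beside -0.01 over all tested genes.

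Summed over the list, the net genes gave 240.97, 272.71 and 298.85 FPKM in libraries 1, 2 and 3, against 84.97, 91.64 and 81.01 FPKM for the meningeal genes. The sums did not overlap, and their ratio was 2.84, 2.98 and 3.69 (3.17 ± 0.458, SD, n = 3). Bcan alone made 37.4% of the net sum and Dcn alone 48.9% of the meningeal sum. The medians of the complete lists were closer. On the log2(FPKM + 1) scale the net median exceeded the meningeal median by 0.92, 0.14 and 0.13 in the 3 libraries, a mean of 0.40 with an SD of 0.45, so this difference was within the spread between libraries. Without library 1, where Hapln4 was highest, it was 0.14. A p is not given because 3 libraries cannot go below 0.25 in an exact two-sided sign-flip test. Bcan, Ncan and Hapln1 carried the sum at 43.11 FPKM or more in every library, while Acan, Has2 and Has3 drew the median of the net list down from 1.22 FPKM or less. With the narrower lists of Acan, Hapln1, Hapln4 and Tnr against Col1a1, Col1a2, Col3a1, Dcn and Lum, the ratio of sums was 1.2 ± 0.199 (SD, n = 3). These sums were 64.06, 82.48 and 82.74 against 63.04, 70.42 and 58.61 FPKM in libraries 1, 2 and 3, and their ranges overlapped. The medians were 3.41, 2.75 and 3.12 against 2.65, 2.84 and 2.90 on the log2(FPKM + 1) scale, so the order was reversed in library 2. Hapln1 alone made 76.5% of the narrower net sum. The narrower net list lacks Bcan and Ncan.

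**Figure D2:**
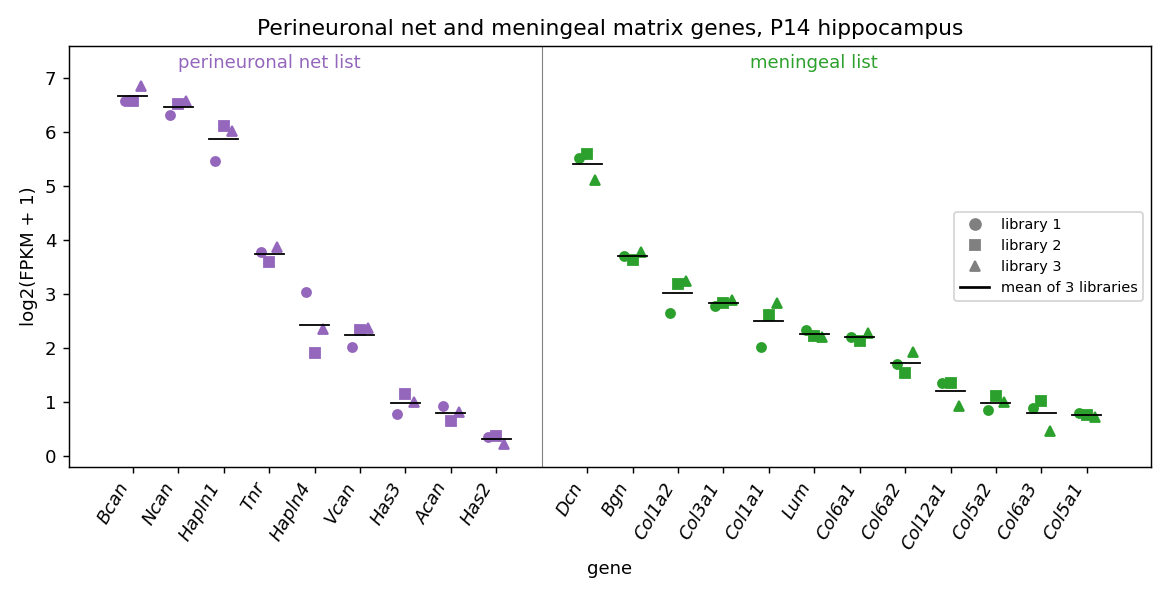
Levels of the 9 perineuronal net genes (left) and the 12 meningeal genes (right), ordered by mean within each list. The vertical axis is log2(FPKM + 1), symbols are libraries 1, 2 and 3 and bars are means. The net list falls from Bcan at 101 FPKM to Has2 at 0.247 FPKM, and the meningeal list from Dcn at 42.0 FPKM to Col5a1 at 0.697 FPKM.

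A second fit set every gene against Col1a2, a defining collagen chain of meningeal fibroblasts, which was at 5.27, 8.13 and 8.52 FPKM. In that fit 7 of 55 tested members were higher than Col1a2, where 28.9% of all tested genes were, and 10 were lower, where 10.1% of all tested genes were. Of the net genes, Bcan exceeded Col1a2 by 3.64, Ncan by 3.44 and Hapln1 by 2.84 log2 units, each in 3 of 3 libraries and each called. Tnr at 0.72, Hapln4 at -0.60 and Vcan at -0.79 log2 units were not called. The spread of Col1a2 itself enters every one of these differences, so limma's p-values are too small and are not given. When the spread of each gene was used alone, Bcan, Ncan and Hapln1 were still called. The members called higher and lower then numbered 4 and 1, where 14.5% and 0.787% of all tested genes were. Without library 1, 2 or 3 the members called lower numbered 16, 2 and 3. The shares of all tested genes called lower were then 15.8%, 2.17% and 3.66%, so both depended on single libraries. Against Dcn in place of Col1a2, 0 net genes were called higher: Bcan was 1.26, Ncan 1.06 and Hapln1 0.45 log2 units above it.

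The small leucine-rich proteoglycans, which bind collagen fibrils, were led by decorin. Dcn was at 44.78, 47.34 and 33.87 FPKM, lowest in library 3. Biglycan (Bgn) was at 12.08, 11.44 and 12.82 FPKM and lumican (Lum) at 4.05, 3.69 and 3.60 FPKM. Dcn stood 11.1 ± 1.71-fold above Lum (SD, n = 3), its neighbour on chromosome 10 at a distance of 47.3 kb. Lum was 1.25 log2 units under the median gene (log2 difference -1.25, limma adjusted p = 0.0376), a call lost when any 1 of the 3 libraries was left out (adjusted p between 0.0711 and 0.136).

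Fibrillar collagens, which form the cables of connective tissue, were modest. Col1a1 was at 3.08, 5.12 and 6.18 FPKM, and Col1a2 was above it in every library. The ratio of Col1a2 to Col1a1 was 1.56 ± 0.168 (SD, n = 3), although collagen I assembles from more Col1a1 than Col1a2 chains. Col3a1 was at 5.86, 6.14 and 6.44 FPKM, and neither it nor Col1a2 was the higher in all 3 libraries. Col5a1 and Col5a2, which nucleate collagen I fibrils, averaged 0.697 ± 0.035 and 0.987 ± 0.180 FPKM (SD, n = 3). Col11a2 was at 4.05, 2.70 and 6.42 FPKM and Col11a1 at 1.65, 1.09 and 0.91 FPKM. The cartilage collagen Col2a1 averaged 0.380 ± 0.271 FPKM (SD, n = 3). Of the 11 fibrillar chains 5 were tested. Limma called 0 higher than the median gene and 1, Col11a1, lower, where 26.0% of all tested genes were higher and 22.3% lower. At an unadjusted p under 0.05 the numbers of fibrillar chains were also 0 and 1.

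The most abundant collagen transcript was that of Col9a3. Col9a3, a chain of the fibril-associated collagen IX of cartilage, was at 14.65, 16.86 and 16.63 FPKM, or 14.8 ± 0.79% of the FPKM of all 44 collagens (SD, n = 3). Its partner chains were lower and uneven: Col9a2 was at 1.21, 7.25 and 3.71 FPKM and Col9a1 at 0.82, 1.27 and 1.44 FPKM. Col9a3 exceeded Col9a2 by 12.1, 2.33 and 4.48-fold in libraries 1, 2 and 3. Of 9 fibril-associated collagens 7 were tested. Among these, 4 were lower than the median gene, Col9a1, Col12a1, Col19a1 and Col22a1, where 22.3% of all tested genes were lower. Col25a1, a transmembrane collagen of neurons that occurs in amyloid plaques, was at 6.26, 5.35 and 4.98 FPKM, and Col26a1 at 7.35, 5.56 and 6.31 FPKM. Col16a1, another fibril-associated chain, was at 2.11, 4.45 and 5.68 FPKM, lowest in library 1. Of the beaded filament collagens, Col6a1 and Col6a2 averaged 3.63 ± 0.220 and 2.32 ± 0.448 FPKM, with Col6a1 higher by 1.59 ± 0.205-fold (SD, n = 3). Col6a1 lay at -1.29 log2 units from the median gene (limma adjusted p = 0.0243), and that call too was lost without any 1 library (adjusted p between 0.0565 and 0.0972). Col10a1, Col17a1 and Col6a6, collagens of hypertrophic cartilage, epidermal anchorage and microfibrils, were each above 0 in only 1 library. Of the 44 collagens 22 had a mean of at least 1 FPKM.

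Basement membrane collagen IV came next among the collagens. Col4a1 was at 10.36, 11.69 and 16.10 FPKM and Col4a2 at 7.98, 6.99 and 9.53 FPKM, both highest in library 3. The chains Col4a1 and Col4a2, which form the ubiquitous collagen IV trimer, had a ratio of 1.55 ± 0.221 (SD, n = 3). The 2 genes are transcribed away from each other, with annotated spans that overlap by 85 bases, so they share promoter sequence. The window of Col4a2 (chr8:11312555-11312854, plus strand, GRCm38.p6, RefSeq) is printed for that reason, with the 78 bases shared with the window of Col4a1 (chr8:11312777-11312854) in capitals.
Col4a2: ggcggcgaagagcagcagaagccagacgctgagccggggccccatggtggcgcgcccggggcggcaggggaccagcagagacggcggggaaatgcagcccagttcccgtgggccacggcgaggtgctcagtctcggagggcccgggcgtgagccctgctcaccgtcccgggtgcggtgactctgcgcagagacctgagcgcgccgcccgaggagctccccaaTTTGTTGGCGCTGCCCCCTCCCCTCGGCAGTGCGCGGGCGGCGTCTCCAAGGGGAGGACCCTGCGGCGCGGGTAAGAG
The shared bases were 73.1% GC and held 9 CpG. Col4a5 was at 3.67, 3.51 and 3.67 FPKM and was called lower than the median gene at -1.30 log2 units (limma adjusted p = 0.0203), again a call lost without any 1 library (adjusted p between 0.0632 and 0.0782). Col4a6, its neighbour on chromosome X at 1274 bases, averaged 0.543 ± 0.121 FPKM (SD, n = 3). The chains Col4a3 and Col4a4, known from kidney and lung, averaged 0.110 ± 0.044 and 0.197 ± 0.084 FPKM (SD, n = 3). Col15a1 and Col18a1, which carry heparan or chondroitin sulfate chains in basement membranes, were at 4.92, 1.77 and 2.72 FPKM and at 1.29, 2.49 and 1.78 FPKM. Col18a1 was called lower than the median gene at -2.01 log2 units (limma adjusted p = 0.00153), and Col15a1 at -1.53 was not called (limma adjusted p = 0.0596).

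Laminins are trimers of an alpha, a beta and a gamma chain. The gamma chain Lamc1 was at 6.67, 8.49 and 8.70 FPKM and stood 6.75 ± 0.511-fold above the gamma chain Lamc3 (SD, n = 3). The beta chains Lamb1 and Lamb2 were at 5.19, 4.13 and 6.01 FPKM and at 3.85, 4.47 and 5.61 FPKM, with no single order over the libraries. The alpha chains had no constant leader. Lama5, an endothelial and epithelial chain, was at 4.49, 0.56 and 1.13 FPKM, or about 185, 26 and 75 fragments. Lama2, the chain of parenchymal and muscle basement membranes, was at 2.38, 2.26 and 5.88 FPKM. Lama4, an endothelial chain, was at 2.24, 3.15 and 2.45 FPKM. The first among alpha chains was thus Lama5 in library 1, Lama4 in library 2 and Lama2 in library 3. Lama1, Lama3 and Lamb3 each had a mean under 1 FPKM.

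Agrin and perlecan, both heparan sulfate proteoglycans of basement membranes, differed greatly. Agrn, which at the neuromuscular junction clusters acetylcholine receptors, was at 33.44, 29.44 and 38.35 FPKM. Perlecan (Hspg2) was at 3.25, 0.84 and 1.67 FPKM, and Agrn exceeded it by 10.3, 35.05 and 22.96-fold. Hspg2 was called lower than the median gene at -2.04 log2 units (limma adjusted p = 0.00848), as was Lama5 at -2.11 (limma adjusted p = 0.0283). With the spread of each gene alone neither was called (adjusted p = 0.115 for Hspg2 and 0.201 for Lama5). The Lama5 call was also lost without library 2 (adjusted p = 0.0958) and without library 3 (adjusted p = 0.117), and without library 1 its mean was under the filter. The nidogens, which bridge laminin and collagen IV, were at 5.11, 5.71 and 5.87 FPKM for Nid1 and 3.13, 3.93 and 5.85 FPKM for Nid2. In the annotation 8.45% of the exonic bases of Nid2 are also exonic in Rtraf, on the opposite strand and at 89.1 ± 8.52 FPKM (SD, n = 3). Whether counting used strand is not given in the sources used here, so reads of the 2 genes cannot be told apart at those bases.

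Fibronectin (Fn1), a cell adhesion glycoprotein of vessels and wounds, was at 8.74, 9.52 and 8.0 FPKM. The matrilins, adaptor proteins of matrix filaments, were at 10.10, 8.22 and 10.57 FPKM for Matn2 and 6.91, 5.01 and 7.57 FPKM for Matn4. Vitrin (Vit) was at 3.18, 2.52 and 3.22 FPKM and was called lower than the median gene at -1.52 log2 units (limma adjusted p = 0.00503).

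The member inhibitors of metalloproteinases were more abundant than the member proteinases in each library. The 4 inhibitors summed to 170.96, 152.29 and 149.34 FPKM, against 23.24, 19.69 and 24.75 FPKM for the 5 proteinases. A list of 10 further matrix proteases and regulators, outside the members, summed to 52.21, 53.1 and 54.58 FPKM. Timp2, which inhibits metalloproteinases and also takes part in the activation of Mmp2 by Mmp14, was at 127.16, 96.81 and 96.58 FPKM, highest in library 1. It held 67.5 ± 5.95% of inhibitor FPKM (SD, n = 3). Timp3, the inhibitor that stays bound to matrix, was at 21.78, 21.90 and 21.92 FPKM, and Timp4 was at 21.08, 32.34 and 29.67 FPKM. Timp1, the inducible member, was at 0.94, 1.24 and 1.17 FPKM, a level that rested on only about 2, 3 and 4 fragments. Among the 5 member proteinases Mmp14, a membrane-bound collagenase, led with 18.91, 13.99 and 18.66 FPKM. Mmp14 stood 9.73 ± 2.52-fold above the gelatinase Mmp2 (SD, n = 3). Mmp24, which is not a member, was at a similar level, 16.16, 16.65 and 18.79 FPKM. Mmp9, the other gelatinase, averaged 1.25 ± 0.212 FPKM, and the lectican-cleaving enzymes Adamts1 and Adamts5 averaged 2.16 ± 0.547 and 0.160 ± 0.053 FPKM (SD, n = 3).

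Timp1, Timp3 and Timp4 lie inside the synapsin genes Syn1, Syn3 and Syn2 on the opposite strand. Syn1 was at 96.8 ± 16.9, Syn3 at 3.22 ± 0.491 and Syn2 at 188 ± 11.9 FPKM (SD, n = 3). Of the exonic bases, 0 of Timp1, 21.3% of Timp3 and 1.53% of Timp4 are also exonic in the host gene. Without strand, reads from host introns or shared exons cannot be told apart from those of the inhibitor. Of the 88 members, 27 shared some exonic bases with another GENCODE gene, and only Timp3 shared at least 10% of its own.

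**Figure D3:**
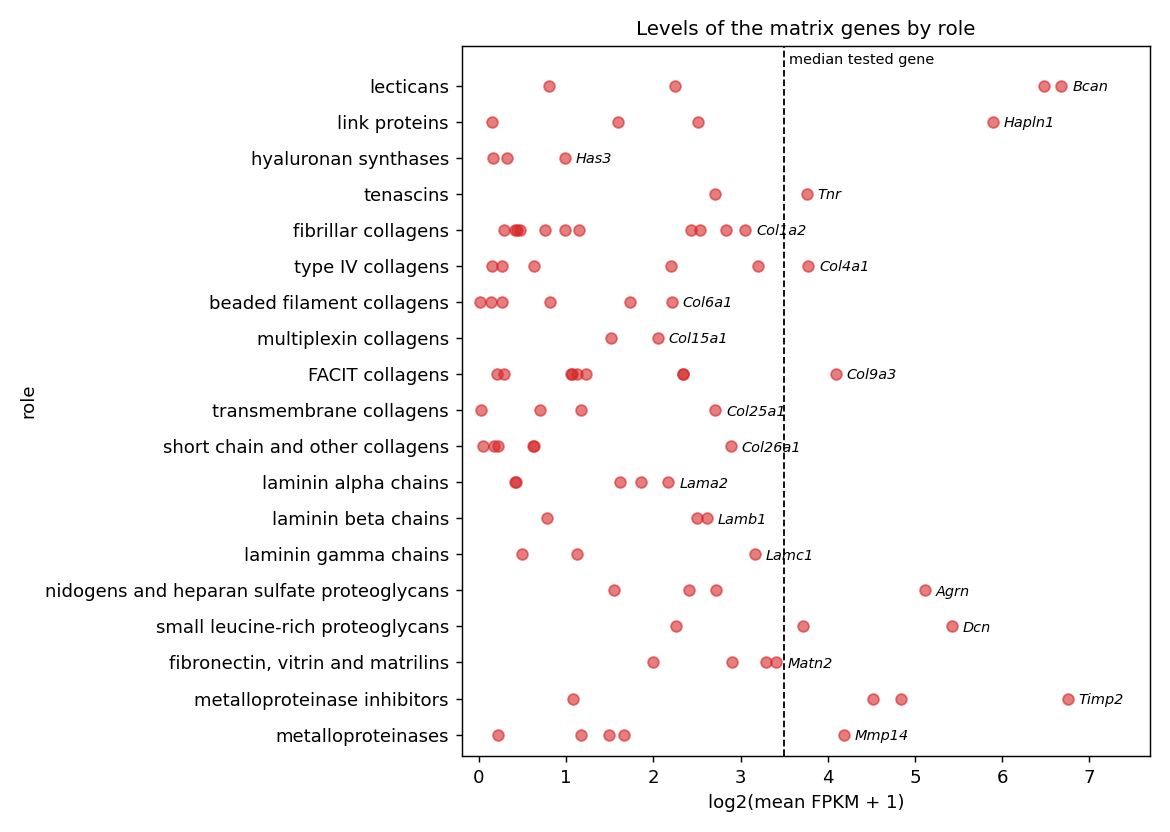
Mean levels of the 88 members by role, as log2 of the mean FPKM over 3 libraries plus 1, with 1 point per gene and the highest gene of each role named. The dashed line is the median tested gene at 10.34 FPKM. Among the 44 collagens only Col9a3 and Col4a1 lie to the right of the line.

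Most pairs of related members kept their order from library to library. In 25 of 30 pairs of paralogs or partner chains the same gene was higher in all 3 libraries. The 5 exceptions were Col1a2 with Col3a1, Lama2 with Lama4, Lamb2 with Lamb1, Col18a1 with Col15a1, and Timp3 with Timp4. These pairs were chosen, and the share over other gene pairs was not computed. Some orders rest on few fragments, such as Col4a3 with Col4a4, at about 5, 3 and 4 against 9, 4 and 14 fragments.

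A minority of members varied strongly between libraries. The highest library was at least 2-fold above the lowest for 12 of the 56 tested members (21.4%), beside 13.1% of all 13337 tested genes. That share was not matched for level, and the median tested member lay -1.10 log2 units from the median gene. The median SD on the log2(FPKM + 1) scale was 0.21 for the members and 0.18 for all tested genes. Lama5 varied 8.02-fold, Col9a2 5.99-fold, Hspg2 3.87-fold, Col15a1 2.78-fold and Col16a1 2.69-fold. Of the 12, library 1 was the highest for Lama5, Hspg2, Col15a1, Hapln4, Col19a1 and Col22a1, and the lowest for Col9a2, Col16a1, Col1a1 and Hapln3. The extremes for Lama5, Hspg2 and Hapln4 rested on 26 or more fragments, so the floor of 3 fragments was not reached. For Col9a2 library 1 held about 12 fragments.

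**Figure D4:**
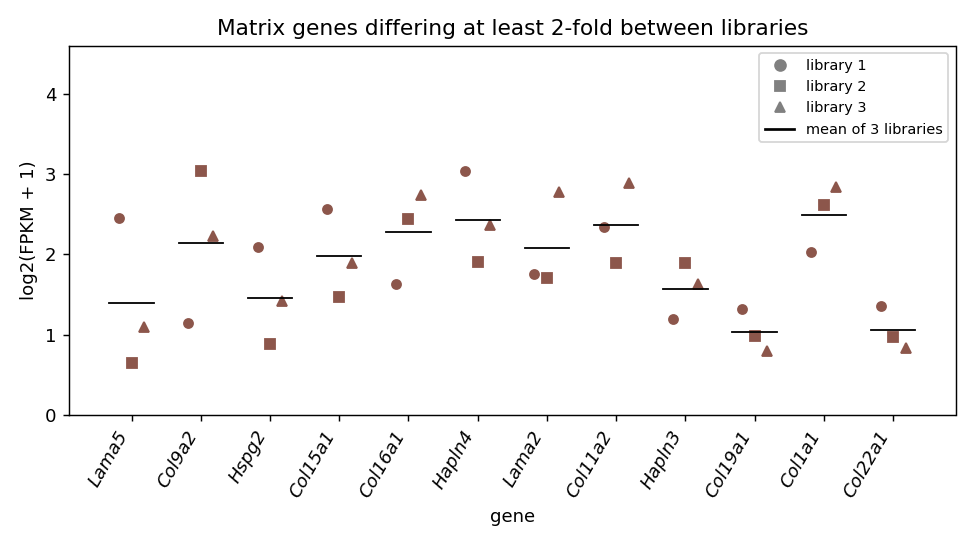
The 12 tested members whose highest library was at least 2-fold above the lowest, in falling order of that ratio from Lama5 (8.02) to Col22a1 (2.00). The vertical axis is log2(FPKM + 1), symbols are libraries 1, 2 and 3 and bars are means. Library 1 is the highest for 6 of them and the lowest for Col9a2, Col16a1, Col1a1 and Hapln3.

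The libraries also differed in other ways. Library 3 was the highest for 30 of the 56 tested members (53.6%), against 30.9% of all tested genes. Its deviation from the gene means rose with transcript GC content, with Spearman's rho of 0.31 across 12496 genes and 0.26 across the 56 members, values that describe genes sharing the same libraries. The median transcript GC content was 53.6% for the members and 50.3% for all tested genes. The 6 choroid plexus markers, led by Ttr, Folr1 and Aqp1, summed to 398, 1086 and 1312 FPKM in libraries 1, 2 and 3, with 98.7% from Ttr. All 6 were lowest in library 1, where Kcnj13 was listed at 0. The meningeal list had no common lowest library. Col1a1, Col1a2, Col3a1 and Col5a2 were lowest in library 1, and Bgn, Col6a1 and Col6a2 in library 2. Dcn, Lum, Col5a1, Col6a3 and Col12a1 were lowest in library 3. Of 10 markers of meningeal fibroblasts and arachnoid that are not matrix genes, 7 had a mean of at least 1 FPKM and 0 were listed at 0 in all libraries. They summed to 221, 303 and 261 FPKM, most of it from Ptgds, which brain cells outside the meninges also express. The 6 genes listed for parvalbumin interneurons summed to 90.2, 112 and 88.2 FPKM, with 54.2% of that sum from Gad1. How far these genes are particular to such cells was not tested. Pvalb itself was at 15.01, 22.42 and 17.72 FPKM. The part of tissue composition and GC content in the matrix values was not tested.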

How the data were processed

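Values were the FPKM of 1 table that the authors deposited, with a column for each of the 3 libraries, per the file headers. Reads were paired, of 150 bases, per the labels' protocols, and were mapped with Bowtie2 to GRCm38, per the submitters' processing notes. None of the steps after mapping (counting tool, annotation, strand setting, treatment of reads shared by paralogs) is described, nor any version, in the sources used here. Values were not rescaled.

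Members were matched by symbol, and every member may be named. Values of 1 member are not reported here. Of the lists of other genes, the enzyme and receptor genes and the 3 highest markers may be named. Members and lists were chosen with earlier results of these data known. Genes with a mean of at least 1 FPKM were compared as log2(FPKM + 1) with limma 3.58.1 in R 4.3.3 (treat, null of at most 1 log2 unit, two-sided), with Benjamini-Hochberg adjustment over the whole table and a threshold of 0.05, first against the median tested gene of the same library and then against Col1a2. This scale understates differences of low genes. Only the fit against the median gene was tested on simulated data, with noise independent between genes. List sums, medians and ratios carry no test. Fragment numbers were estimated from steps between low values of genes with 1 transcript, of which 93.1%, 92.3% and 91.6% in libraries 1, 2 and 3 came within 0.15 of a whole number after fitting, so the number of fragments is approximate. Positions and promoters came from RefSeq (GRCm38.p6), transcript lengths, GC content and overlaps from GENCODE M21. Alternatives changed the pseudocount, filter, null, variance prior, scaling, comparison gene and lists, and left out each library.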

Additional observations from a re-analysis of the deposited data

How the results depend on the processing

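No paired analysis was possible because the libraries form 1 group. Against the median gene, the members called higher (6) and lower (21) became 12 and 40 without a filter, 10 and 41 under a null of no difference, 0 and 53 against Slc22a17 and 4 and 7 with a filter at 5 FPKM. The shares of all genes tested called higher and lower in these fits were 31.3% and 31.7%, 43.2% and 43.0%, 1.57% and 91.4%, and 23.8% and 11.9%, so the background moved as well. The median of the tested genes itself moves with the filter. Against Col1a2, the members called higher (7) became 13 under a null of no difference, 4 with the spread of each gene alone (an alternative chosen after seeing the data) and 0 against Dcn. Those called lower (10) became 45 without a filter, 0 at 5 FPKM, 29 under a null of no difference, 17 after rescaling to TPM, 1 with each gene's own spread and 46 against Dcn, and between 2 and 16 when a library was left out. Of all genes, 59.5% were lower than Dcn, 37.9% lower than Col1a2 without a filter and 28.8% under a null of no difference. The share called lower was 0.0217% at 5 FPKM, 15.5% as TPM, 0.787% with each gene's own spread and 2.17% to 15.8% without a library. Called higher were 47.8% of all genes under a null of no difference, 14.5% with each gene's own spread and 6.43% against Dcn. Net genes called higher (3) became 0 against Dcn; net genes called lower (0) became 3 without a filter, 2 under a null of no difference, 2 as TPM, 3 against Dcn and between 0 and 1 without a library. The difference of list medians (0.40) became 0.99 as a difference of means and 2.21 over members of at least 1 FPKM, and the ratio of sums (3.17) became 1.2 with the narrower lists and 3.86 without the highest member of each list. The cause of these changes was not tested.

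Slc22a17 is a high comparison gene, and 91.4% of all tested genes were called lower than it. A change of sign against Slc22a17 therefore follows from that choice. Differences whose sign was not that of the main fit had these values. Against Slc22a17 they were -2.58 for Agrn, -1.02 for Bcan, -3.98 for Bgn, -3.94 for Col4a1, -3.61 for Col9a3, -2.28 for Dcn, -1.83 for Hapln1, -3.52 for Mmp14, -1.22 for Ncan, -0.95 for Timp2, -3.18 for Timp3, -2.87 for Timp4 and -3.94 for Tnr. With a mean of at least 5 FPKM they were -0.58 for Bgn, -0.53 for Col4a1, -0.20 for Col9a3, -0.12 for Mmp14 and -0.54 for Tnr. Without a filter they were 0.030 for Col1a1, 0.56 for Col1a2, 0.24 for Col25a1, 0.42 for Col26a1, 0.37 for Col3a1, 0.72 for Col4a2, 0.82 for Fn1, 0.13 for Lamb1, 0.019 for Lamb2, 0.69 for Lamc1, 0.94 for Matn2, 0.42 for Matn4, 0.25 for Nid1 and 0.24 for Tnc. As TPM Matn2 was at 0.014, and Tnr lay at -1.66 from Dcn. With a library left out, the ratio of Lama2 to Lama4 lay between 0.890 (without library 3) and 1.73 (without library 2), that of Lamb2 to Lamb1 between 0.838 (without library 2) and 1.01 (without library 1), and that of Col18a1 to Col15a1 between 0.458 (without library 2) and 1.03 (without library 1). The other alternatives of single members and pairs gave 615 unchanged values, meaning the same call or, for ratios, a move under their SD. A further 69 values passed the threshold only there, 38 no longer passed it and 13 ratios moved by more than their SD. Depth limits members with few fragments, such as Timp1, Has1, Has2 and Hapln2.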

Other observations

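Of 23 receptors of the matrix 18 were tested, and 5 were higher than the median gene, 5 were lower and 8 were not called, shares near those of all tested genes (26.0% higher and 22.3% lower). The higher ones were Ptprs and Ptprz1, receptor phosphatases that bind or carry chondroitin sulfate, at 86.0 ± 3.42 and 72.9 ± 4.49 FPKM, Itgb1, the common beta integrin, at 40.8 ± 0.549 FPKM, Dag1, the laminin and agrin receptor dystroglycan, at 35.3 ± 4.66 FPKM, and Rtn4r, the Nogo receptor, at 29.1 ± 2.82 FPKM (SD, n = 3). The lower ones were Cd44, the hyaluronan receptor, at 2.06 ± 0.599 FPKM, the collagen receptor Ddr2 at 1.79 ± 0.522 FPKM, and the alpha integrins Itga1, Itga3 and Itga5 at 1.24 ± 0.183, 2.54 ± 0.989 and 1.36 ± 0.085 FPKM (SD, n = 3).

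Of 14 collagen-modifying enzymes 11 were tested. Against the median gene 1 was higher, 4 lower and 6 not called, where 26.0% of all tested genes were higher and 22.3% lower. Serpinh1, the collagen chaperone Hsp47, was the higher, at 31.41, 29.85 and 36.07 FPKM. The lower enzymes were the cross-linking oxidases Loxl1 and Loxl3 and the hydroxylases P4ha3 and Plod2, with means between 1.25 and 3.10 FPKM, and Loxl4 was listed at 0 in every library. Of 10 further matrix proteases and regulators 9 were tested, and limma called 0 higher (0 at an unadjusted p under 0.05) and 5 lower: Adamts4, Adamts8, Adamts9, Adamts15 and the inhibitor Reck. The shares over all tested genes were again 26.0% higher and 22.3% lower. Mmp24 and Mmp17, membrane-bound proteinases, averaged 17.2 ± 1.40 and 16.2 ± 0.396 FPKM (SD, n = 3).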
